A study of Rattus norvegicus with 20 samples.

Results

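The genes described here encode the Nogo receptor pathway and the nicotinic receptor modulator Lynx1, molecules known as brakes on structural plasticity in the adult cortex. They were chosen by symbol and are *Rtn4*, *Rtn4r*, *Rtn4rl1*, *Rtn4rl2*, *Lingo1*, *Omg* and *Lynx1*, 7 of the 31038 genes in the count matrix. RNA was measured by poly(A) RNA-seq in the medial prefrontal cortex (mPFC) of 20 male Sprague-Dawley rats, with 1 library per rat. In the LSD group, 10 rats received intraperitoneal LSD at 0.16 mg/kg every other day over 90 days, and in the saline group 10 rats received sterile saline on the same schedule. All rats were 6 to 8 weeks old at the start and housed singly, and the mPFC was collected 3 weeks after the last injection according to the labels. The study's methods give an older starting age and a longer drug-free interval, for both groups alike. The tissue is a bulk dissection of frozen mPFC from 1 hemisphere, so that fewer cells of a type and less RNA per cell cannot be told apart.

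The protein Nogo-A, made from *Rtn4*, and the oligodendrocyte myelin glycoprotein, made from *Omg*, are ligands that stop growing neurites. Both bind the Nogo receptor NgR1, the product of *Rtn4r*, a leucine-rich repeat protein anchored in the membrane by a lipid, which has no intracellular part and signals through partners such as Lingo1 and the neurotrophin receptor p75. The signal runs through the GTPase RhoA and its kinases to the actin cytoskeleton. *Rtn4rl2* and *Rtn4rl1* encode the homologues NgR2 and NgR3, and NgR3 is known, with NgR1, as a receptor for chondroitin sulphate proteoglycans. Lynx1 is a small lipid-anchored protein of the Ly6 family that binds nicotinic acetylcholine receptors and dampens their response, and mice without it keep juvenile plasticity in the visual cortex.

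Library size, the reads assigned to genes, was 16346629 to 25552681 for the LSD group and 11098076 to 24201351 for controls, and the LSD libraries were 1.24 times larger on average (exact two-sided permutation test of the means, p = 0.0162, n = 10 rats per group). Levels are given as RPM, a gene's reads relative to the size of its library, scaled with TMM, a method that aligns the bulk of genes between libraries. Expression was tested with edgeR's quasi-likelihood F test over the 16605 genes with enough reads, and a gene was called when its Benjamini-Hochberg adjusted p over all these genes was under 0.05. This called 15.0% of all genes tested, 6.48% as higher and 8.54% as lower in LSD, so that 56.9% of the called genes were lower. Scaling by total counts instead turned this split to 36.3% lower. Markers of cortical excitatory neurons such as *Slc17a7* were abundant in every library. The striatal markers *Drd1*, *Drd2* and *Adora2a* summed to over 70 RPM in 4 rats, LSD replicate 9 and saline replicates 2, 8 and 9, and to between 22.6 and 52.3 RPM in the other 16, and results are therefore also given without these 4 rats, a choice made after the data were seen.

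Of the 7 genes, *Lynx1* was called, at a lower level in LSD-treated rats, and none was called as higher. *Rtn4r*, *Rtn4rl1*, *Rtn4rl2* and *Lingo1* had negative log2 fold changes and the ligand genes *Rtn4* and *Omg* positive ones, and these 6 did not pass the threshold. At an unadjusted p under 0.05 edgeR had 0 of the 7 higher and 4 lower, and DESeq2, which called 18.7% of all genes, called 0 of the 7 higher and 1 lower. The unadjusted threshold was passed by at least 5092 of the 16605 genes, in either direction. All 7 passed the filter on low counts, with at least 962 reads in each rat. The 1 gene called of 7 stands beside a background of 15.0% of all genes, and the median log2 fold change of the 7 was -0.25, against 0.00 over all genes tested.

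**Figure D1:**
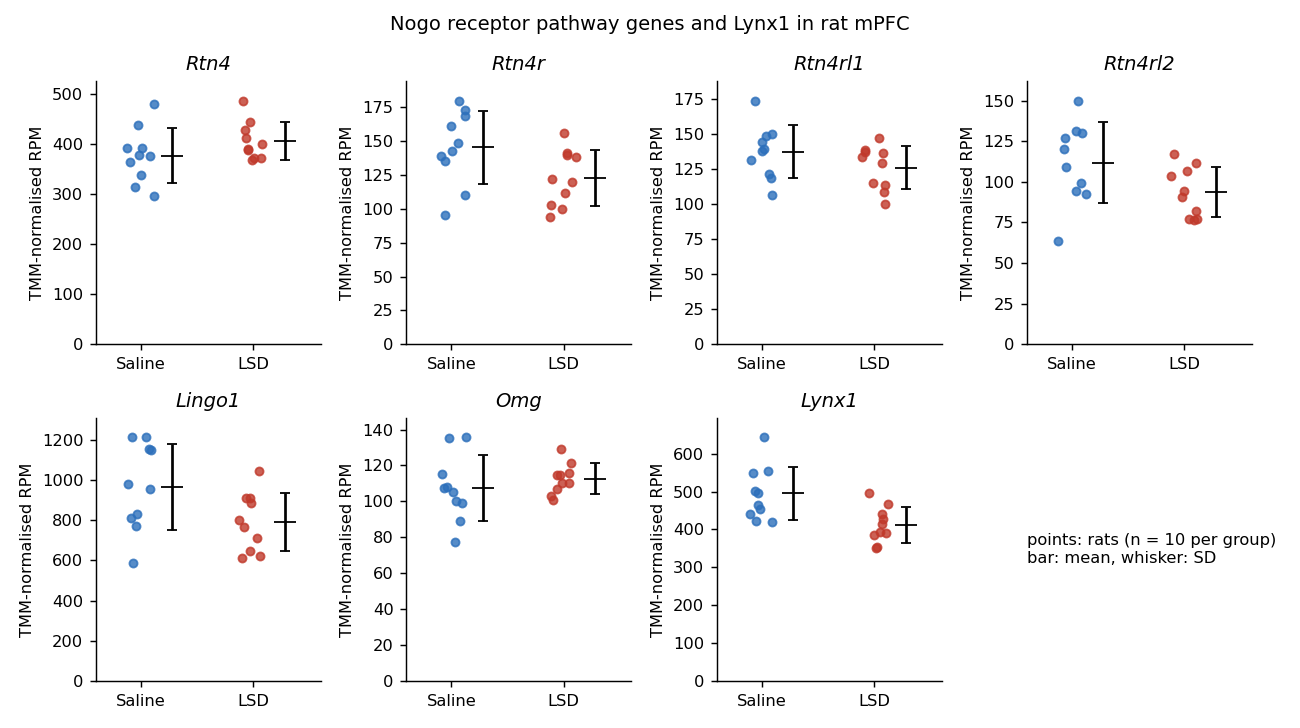
TMM-normalised RPM (vertical axes, from 0) of the 7 genes in each of the 10 saline and 10 LSD rats (points), with the mean and SD of each group. The groups overlap for all 7 genes, and *Lynx1* shows 6 LSD-treated rats under the lowest control.

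Among the ligands, *Rtn4* had 367.6 RPM in the lowest LSD-treated rat, a median of 394.2 and 486.7 in the highest. In controls it had a lowest value of 295.7, a median of 377.0 and a highest value of 479.6 RPM. The groups overlapped over most of their range, with 7 of 10 LSD-treated rats above the control median. The group means were 405.8 ± 37.7 RPM in LSD (SD, n = 10) and 376.8 ± 54.7 in controls (SD, n = 10), with a log2 fold change of 0.11 (standard error, SE, of 0.075, edgeR adjusted p = 0.354). *Omg* had 100.7, 112.4 and 129.3 RPM as the lowest, median and highest value in LSD and 77.1, 106.2 and 135.7 RPM in controls. The controls enclosed the LSD-treated rats on both sides, and the log2 fold change was 0.07 (SE 0.081, edgeR adjusted p = 0.600). *Omg* lies within the span of *Nf1* in the RefSeq annotation, and the strand setting of the counting is not stated, so reads of the 2 genes may not be told apart. Other annotated genes also overlap the spans of *Rtn4* (*Eml6*), *Rtn4rl1*, *Rtn4rl2* and *Lingo1*, where the same limit applies.

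The receptor gene *Rtn4r* had a lowest value of 94.1, a median of 121.1 and a highest value of 155.8 RPM in LSD, and of 95.5, 145.6 and 180.1 RPM in controls. The ranges overlapped over most of their length, 9 of 10 LSD-treated rats were below the control median, and the log2 fold change was -0.25 (SE 0.11, edgeR adjusted p = 0.124). *Rtn4rl2*, for NgR2, had 76.4, 92.4 and 117.0 RPM in LSD and 63.8, 114.7 and 150.0 RPM in controls as the lowest, median and highest value. Its log2 fold change was -0.25 (SE 0.12, edgeR adjusted p = 0.150). The lowest value of all rats was a control, saline replicate 2. *Rtn4rl1*, for NgR3, had the smallest difference of the 3 receptors, with 125.8 ± 15.4 RPM in LSD (SD, n = 10), 137.0 ± 18.9 in controls (SD, n = 10) and a log2 fold change of -0.12 (SE 0.080, edgeR adjusted p = 0.310).

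*Lingo1*, the co-receptor, had 611.4, 784.5 and 1045 RPM as the lowest, median and highest value in LSD and 584.8, 966.2 and 1213 RPM in controls. It was the gene with the widest spread among LSD-treated rats, with a coefficient of variation of 18.4%, and 9 of them were below the control median. The log2 fold change was -0.29 (SE 0.12, edgeR adjusted p = 0.114). For *Rtn4r*, *Rtn4rl2* and *Lingo1* the call moved when a single control was left out. Without saline replicate 2, the log2 fold changes were -0.30 (adjusted p = 0.0315), -0.32 (adjusted p = 0.0261) and -0.35 (adjusted p = 0.0273, all edgeR), and with *Lynx1* 4 of the 7 genes were then called lower, beside 11.5% of all genes called lower and 21.7% called in either direction. With all 20 rats, *Lingo1* was called when counts were corrected for the genomic span of genes (-0.39, adjusted p = 0.0452), and *Lingo1* (-0.29, adjusted p = 0.0241) and *Rtn4r* (-0.25, adjusted p = 0.0279) were called with 1 surrogate variable in edgeR. Saline replicate 2 has the largest control library and is among the 4 rats high in striatal markers.

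*Lynx1* had a lowest value of 350.2, a median of 403.6 and a highest value of 495.8 RPM in LSD, and of 419.9, 480.5 and 643.3 RPM in controls. In 6 of the 10 LSD-treated rats it was lower than in any control, and in 9 of 10 lower than the control median. The means were 411.8 ± 46.7 RPM in LSD (SD, n = 10) and 494.7 ± 70.8 in controls (SD, n = 10), a fold change of 0.832. The log2 fold change was -0.26 (SE 0.078, edgeR adjusted p = 0.0266), and it ranked 1563 of all genes by p-value. DESeq2 gave -0.27 (adjusted p = 0.0126). The call was lost without saline replicate 1 (-0.21, adjusted p = 0.0548) or without saline replicate 3 (-0.24, adjusted p = 0.0545), the 2 controls with the highest *Lynx1*. It was also lost with no filter on low counts (adjusted p = 0.0597) and when each rat's counts were corrected for the genomic span of genes (-0.19, adjusted p = 0.114). Over all kept genes with a known span, the log2 fold change rose with span (Spearman's rank correlation 0.359, and 0.05 in the corrected fit). By span, *Lynx1*, with 5230 bases, stood at percentile 12.7 of these genes and *Lingo1* at 92.8. The part of span in the group differences was not tested. The neighbouring gene *Slurp2*, a Ly6 gene whose span in the RefSeq annotation ends just before that of *Lynx1*, had at most 3 reads in any rat.

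Promoter windows of 3 genes, from RefSeq on GRCr8, are shown because the receptor genes *Rtn4r* and *Rtn4rl2* varied together from rat to rat while the ligand gene *Omg* varied the opposite way. The r of *Omg* with *Rtn4r* and *Rtn4rl2* was -0.61 and -0.77 within groups. It was 0.09 and -0.34 once the relation to library size was removed. A link between these windows and the levels was not tested. Each window spans 100 bases before to 50 after the start of the gene, 5′ to 3′ on its own strand, with every CG dinucleotide in capitals.
*Rtn4r*, chr11:96373505-96373654, minus strand: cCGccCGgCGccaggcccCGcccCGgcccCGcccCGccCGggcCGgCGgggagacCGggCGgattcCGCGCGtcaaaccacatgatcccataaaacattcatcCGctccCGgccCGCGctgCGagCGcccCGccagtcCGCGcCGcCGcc
*Rtn4rl2*, chr3:90377726-90377875, minus strand: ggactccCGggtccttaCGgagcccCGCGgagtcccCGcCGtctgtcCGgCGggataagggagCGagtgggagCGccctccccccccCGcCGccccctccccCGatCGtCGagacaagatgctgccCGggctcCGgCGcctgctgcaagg
*Omg*, chr10:64962001-64962150, minus strand: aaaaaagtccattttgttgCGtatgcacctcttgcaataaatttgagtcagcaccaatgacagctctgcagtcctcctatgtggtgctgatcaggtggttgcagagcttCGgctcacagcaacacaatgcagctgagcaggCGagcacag

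The *Rtn4r* window holds 26 CG dinucleotides, a number reached by 1.575% of the 33469 promoter windows in the set, and its G and C content is 79.3%. The *Rtn4rl2* window holds 18, a number reached by 10.05% of windows, with a G and C content of 75.3%. The *Omg* window holds 3, a number reached by 61.4% of windows, with a G and C content of 49.3%. The median of all windows is 4 CG dinucleotides and 53.3% G and C. CG reads the same on both strands. The window given for *Lingo1* lies at a start inside the annotated span of the gene and is not shown, and those of *Rtn4*, *Rtn4rl1* and *Lynx1* were not used here.

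The levels followed library size in both groups. For *Lingo1*, the raw reads stayed between 12396 and 18400 per rat across libraries of 11098076 to 25552681 reads. Pearson's r of log2(RPM + 1) with log2 reads on genes was -0.87 among the 10 LSD-treated rats and -0.88 among the 10 controls (Spearman's rank correlation -0.77 and -0.84). *Rtn4r* had an r of -0.87 and -0.84 in the 2 groups, *Rtn4rl2* of -0.87 and -0.86, and *Rtn4rl1* of -0.83 and -0.77. The ligand genes went the other way, with an r of 0.90 and 0.84 for *Rtn4* (rank correlation 0.94 and 0.89) and of 0.67 and 0.81 for *Omg*. *Lynx1* had the r closest to 0 of the 7 in both groups, with an r of -0.60 in LSD, which became -0.19 without the 2 rats farthest from the median library size, and of -0.29 in controls, which became -0.455. For the other 6 genes r kept its sign without the 2 farthest rats of each group, with sizes from 0.71 to 0.95. Over all genes tested, the median r was 0.02 in LSD and 0.03 in controls, and the quartiles of all genes lay between -0.43 and 0.47. These correlations are descriptions over 10 rats each, and RPM contains library size in its divisor.

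**Figure D2:**
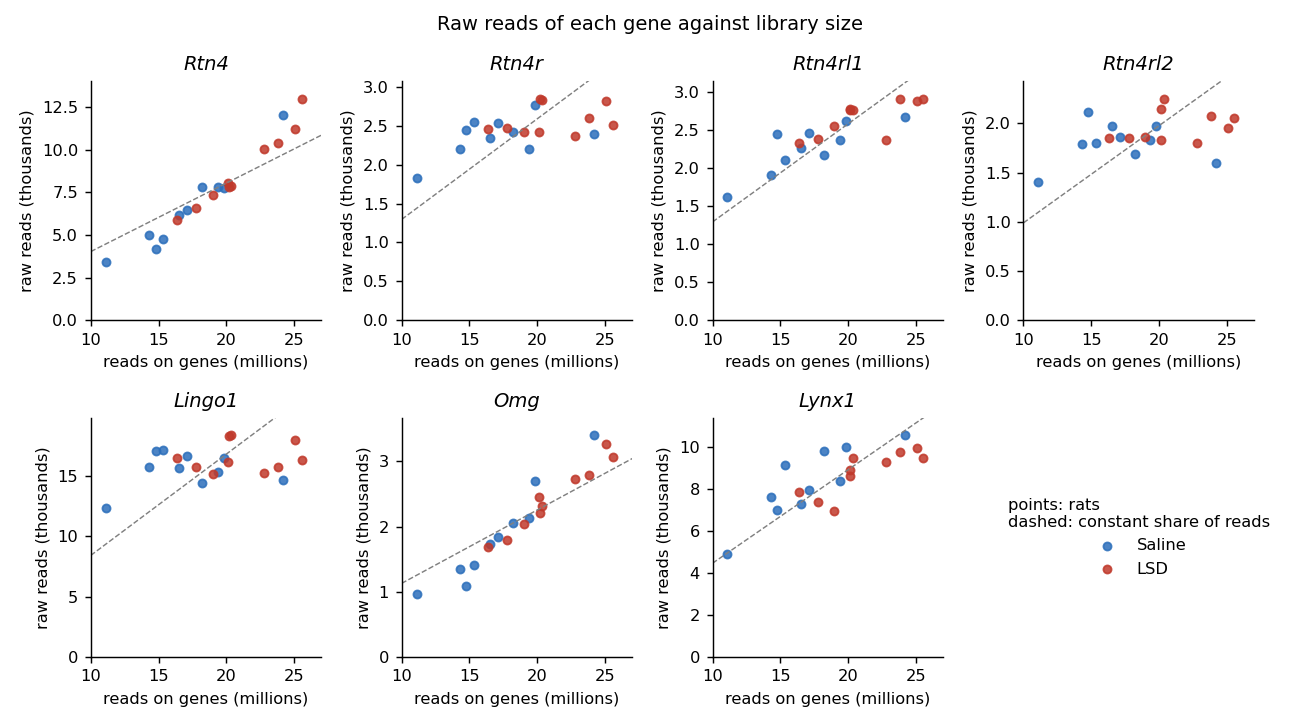
Raw reads of each gene in kilo-reads (vertical axes, from 0) against reads on genes in mega-reads (horizontal axes) for the 20 rats, with a dashed line where a gene would take a constant share of all reads. *Lingo1*, *Rtn4r* and *Rtn4rl2* run flatter than the line, *Rtn4* and *Omg* steeper, and *Lynx1* lies closest to it.

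As a slope within groups, a doubling of library size went with a change in log2(RPM + 1) of -1.01 for *Lingo1*, -0.97 for *Rtn4rl2*, -0.85 for *Rtn4r* and -0.56 for *Rtn4rl1*, of 0.56 for *Rtn4* and 0.55 for *Omg*, and of -0.27 for *Lynx1*. The slopes of *Lingo1*, *Rtn4rl2* and *Rtn4r* lie among the lowest 1.05% of all genes. Library size also followed the first principal component of all genes, which held 26.1% of the variance, with an r of 0.90 in LSD and 0.85 in controls. With each rat's library size as a covariate in edgeR, a fit added after the data were seen, 6 of the 7 log2 fold changes turned in sign and none of the 7 genes was called. *Rtn4* had a log2 fold change of -0.07 and *Omg* of -0.10, whereas *Rtn4r* had 0.03, *Rtn4rl1* 0.06, *Rtn4rl2* 0.08 and *Lingo1* 0.05, with adjusted p-values from 0.356 to 0.805. *Lynx1* kept its direction at -0.17 (SE 0.084, edgeR adjusted p = 0.193). This fit called 534 genes as higher and 639 as lower, 7.06% of all genes. The LSD libraries were 1.24 times larger on average, so the covariate overlaps with treatment. A difference of the LSD group that runs along with library size cannot be told apart from library size in this fit. Drawing the reads of every rat down to 11098076 left the 7 log2 fold changes in their direction and *Lynx1* called (-0.27, edgeR adjusted p = 0.0265). A random draw keeps each gene's expected share of the reads of a rat, so it cannot remove a relation of level to library size.

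Without the 4 rats high in striatal markers, which left 9 LSD-treated rats and 7 controls, 6 of the 7 genes were called, in a fit that called 20.9% of all genes. All 4 rats left out had libraries above the median of their group. Saline replicates 2, 8 and 9 held 24201351, 18216632 and 19805283 reads (group median 16815424). LSD replicate 9 held 22770382 (group median 20271086). Their removal thus took out larger libraries, mostly of controls. *Lynx1* (-0.26, adjusted p = 0.0443), *Rtn4r* (-0.31, adjusted p = 0.0460), *Rtn4rl2* (-0.36, adjusted p = 0.0201) and *Lingo1* (-0.40, adjusted p = 0.0216) were lower in LSD in this subset. *Rtn4* (0.20, adjusted p = 0.0467) and *Omg* (0.20, adjusted p = 0.0454) were higher, and *Rtn4rl1* was not called (-0.17, adjusted p = 0.115, all edgeR). Of the oligodendrocyte markers, all 8 had a negative log2 fold change over the 20 rats, 1 of them (*Cldn11*) was called, and their sum ranged from 2330 to 5937 RPM in LSD and from 2342 to 7722 RPM in controls. With this sum, centred within groups over the 20 rats, *Omg* had an r of 0.69 and *Rtn4* of 0.70, *Lingo1* of -0.54 and *Lynx1* of 0.18. The part of these cells and of library size in the group differences was not tested.

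**Figure D3:**
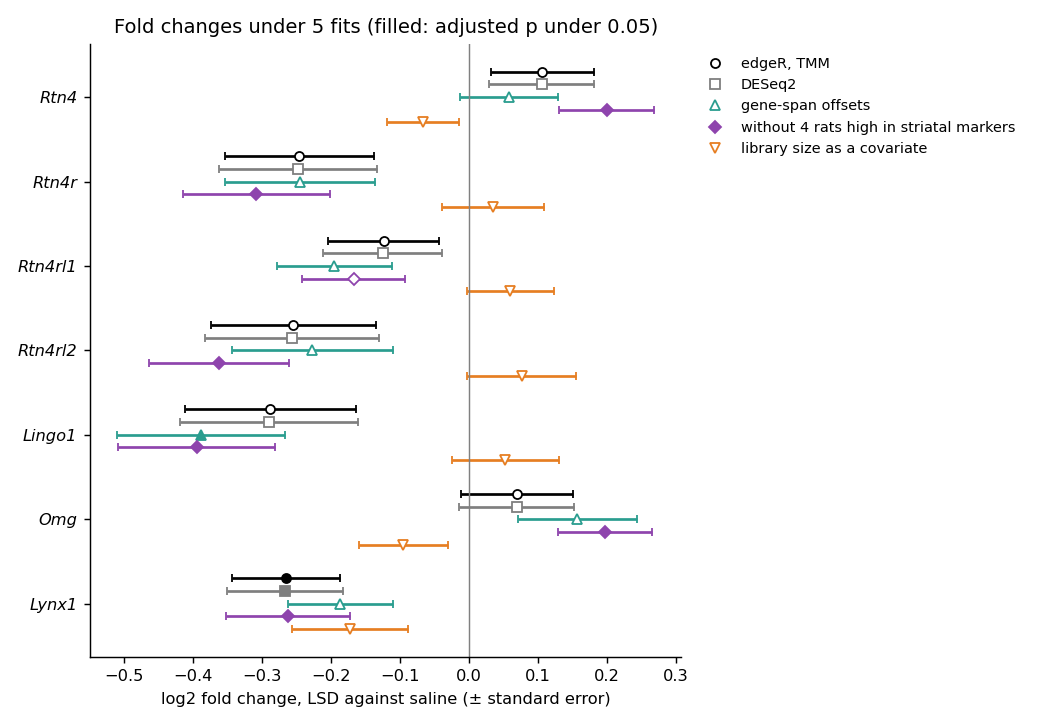
Log2 fold change of LSD against saline (horizontal axis, whiskers show the standard error) for the 7 genes under 5 fits, filled where the adjusted p is under 0.05. With library size as a covariate, 6 genes lie on the other side of 0 from the edgeR fit without it, and *Lynx1* stays negative in all 5.

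The genes varied together from rat to rat. After removing the group means, the 6 pairs among *Rtn4r*, *Rtn4rl1*, *Rtn4rl2* and *Lingo1* had a Pearson's r between 0.91 and 0.98 over the 20 rats, led by *Rtn4r* with *Lingo1* (r = 0.98, Spearman's rank correlation 0.97). *Rtn4* and *Omg* had an r of 0.83, and the 8 pairs of a ligand with a receptor or *Lingo1* had an r between -0.89 and -0.61. *Lynx1* sided with the receptors and *Lingo1*, with an r between 0.50 and 0.69, and was weakly related to *Rtn4* (-0.35) and *Omg* (-0.13). All pairs share library size. After its slope was removed as well, the 6 pairs of receptors and *Lingo1* still had an r between 0.75 and 0.91, *Rtn4* and *Omg* had 0.52, and the opposed pairs spread from -0.62 to 0.09. *Lynx1* then had an r from 0.33 (*Rtn4rl1*) to 0.71 (*Rtn4r*) with the receptors and *Lingo1*, of -0.0006 with *Rtn4* and of 0.30 with *Omg*. With total-count scaling and the slope kept, its r with the receptors and *Lingo1* ran from 0.25 (*Rtn4rl1*) to 0.53 (*Rtn4r*).

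The genes with the profile most like each member over the 20 rats, by Pearson's r within groups, were *Pld3* (0.98) and the vesicular zinc transporter *Slc30a3* (0.98) for *Rtn4r*, and *Tmem132a* (0.98), *Lrp3* (0.98) and *Lrfn1* (0.98) for *Lingo1*. *Lingo1* itself was the third most like *Rtn4r* and the first for *Rtn4rl2* (0.96), followed there by *Klhl26* (0.96) and *Agpat1* (0.96). *Slc30a3* (0.94), *Gpr83* (0.94) and *Prdm8* (0.93) were most like *Rtn4rl1*. The ligand *Rtn4* was most like the diacylglycerol kinase *Dgkb* (0.94), LOC100912622 (0.94) and *Ivns1abp* (0.94), and *Omg* was most like *Cabyr* (0.94), *Trappc2* (0.92) and the mitochondrially encoded complex I subunit *ND3* (0.92). *Lynx1* was most like the transcription factor *Nfe2l1* (0.90), *Cdk16* (0.90) and *Adap1* (0.90), and these values were 0.90, 0.89 and 0.89 with the slope on library size removed. For the genes most like the other 6, removing it left r between 0.78 (*Ivns1abp* for *Rtn4*) and 0.94 (*Pld3* for *Rtn4r*), with *Prdm8* for *Rtn4rl1* at 0.79 and *ND3* for *Omg* at 0.80.

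Ratios of 2 genes within a rat do not depend on how libraries are scaled. The log2 ratio of *Rtn4* to *Rtn4r* reads was 1.74 ± 0.36 in LSD (SD, n = 10) and 1.38 ± 0.48 in controls (SD, n = 10), with 9 of 10 LSD-treated rats above the control median, and that of *Omg* to *Rtn4r* was -0.11 ± 0.31 and -0.44 ± 0.50. Both ratios followed library size, with an r of 0.92 and 0.93 in LSD and 0.87 and 0.89 in controls. *Lingo1* to *Rtn4r* was nearly constant, at 2.69 ± 0.043 in LSD and 2.72 ± 0.096 in controls. The log2 ratio of *Lynx1* to *Chrna7*, the nicotinic subunit alpha 7, was 3.04 in the lowest LSD-treated rat, 3.22 at the median and 3.42 in the highest, against 3.31, 3.53 and 4.44 in controls. All 10 LSD-treated rats were below the control median, and the r with library size was -0.54 in LSD and 0.13 in controls. The highest control ratios, 4.44 in saline replicate 9 and 4.01 in saline replicate 8, came from rats high in striatal markers. For *Chrna4* and *Chrnb2*, which form the main heteromeric nicotinic receptor of the cortex, the log2 ratio of *Lynx1* differed by -0.15 and -0.12 between the group means, less than 1 SD within either group. These 2 ratios rose with library size, with an r of 0.73 and 0.66 in LSD and of 0.69 and 0.70 in controls. These ratios are descriptions without a test.

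The other genes of the pathways were taken from lists by known function. Of 12 partners and modulators of Nogo receptors, 3 were called lower and none higher, beside 8.54% of all genes called lower and 6.48% higher. The median log2 fold change of the 12 was -0.04. *Ngfr*, which encodes p75, had 1.44 ± 0.288 RPM in LSD (SD, n = 10) and 1.94 ± 0.291 in controls (SD, n = 10), from 23 to 47 reads per rat, and fell by 0.43 on the log2 scale (SE 0.12, edgeR adjusted p = 0.0228). This call was lost with no filter on low counts (adjusted p = 0.0523), with drawn reads (0.0564) and without the 4 rats high in striatal markers (0.0613). *Lingo3*, a homologue of *Lingo1*, fell by 0.50 (SE 0.13, edgeR adjusted p = 0.0173), and 5 LSD-treated rats were lower than any control. *Crtac1*, the gene of the Nogo receptor antagonist LOTUS, had 111.9 ± 7.48 RPM in LSD and 132.7 ± 13.7 in controls, all 10 LSD-treated rats were below the control median, and it fell by 0.25 (SE 0.058, edgeR adjusted p = 0.00997). *Tnfrsf19*, the alternative co-receptor TROY, had a log2 fold change of -0.03, with an adjusted p of 0.814.

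Of 6 other myelin ligands and reticulons, none was called by edgeR and 1 was called lower by DESeq2, which called 10.5% of all genes lower. At an unadjusted p under 0.05 edgeR had 4 lower, a threshold passed by at least 5092 of the 16605 genes. Their median log2 fold change was -0.14. The smallest p-value belonged to *Mag*, a myelin ligand of Nogo receptors made by oligodendrocytes, with 161.4 ± 45.1 RPM in LSD (SD, n = 10) and 225.3 ± 74.8 in controls (SD, n = 10) and a log2 fold change of -0.48 (SE 0.18, edgeR adjusted p = 0.0715).

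Downstream of the receptors, 3 of 10 genes of RhoA signalling were called, 2 higher and 1 lower. Of all genes tested, 15.0% were called, 6.48% higher and 8.54% lower. The median over the 10 genes of RhoA signalling was 0.05 on the log2 scale. *Arhgdia*, which encodes an inhibitor that keeps RhoA inactive in the cytosol, had a lowest value of 439.6, a median of 473.6 and a highest value of 586.6 RPM in LSD, and of 512.8, 622.9 and 716.5 RPM in controls. In 9 of 10 LSD-treated rats it was lower than in any control, and it fell by 0.38 (SE 0.066, edgeR adjusted p = 0.00357), rank 21 of all genes by p-value. It was also called in the fit with library size as a covariate (-0.27, adjusted p = 0.0248) and in the one corrected for genomic span (-0.29, adjusted p = 0.00616). The kinase genes *Rock1* and *Rock2* were higher in LSD. *Rock1* had 40.8 ± 5.97 RPM in LSD and 30.9 ± 5.23 in controls, a log2 fold change of 0.40 (SE 0.094, edgeR adjusted p = 0.0100), and *Rock2* of 0.25 (SE 0.079, edgeR adjusted p = 0.0352), with all 10 LSD-treated rats above the control median for each. The call of *Rock2* was lost in 9 of the 20 fits that left out 1 rat and in the one corrected for genomic span (0.17, adjusted p = 0.120). *Rhoa* itself had a log2 fold change of 0.06, not called at an adjusted p of 0.705. With library size as a covariate, *Rock1* (0.32, adjusted p = 0.0666) and *Rock2* (0.10, adjusted p = 0.383) were not called, nor were *Ngfr* (-0.39, adjusted p = 0.0853), *Lingo3* (-0.24, adjusted p = 0.196) and *Crtac1* (-0.21, adjusted p = 0.0541), each in its former direction.

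**Figure D4:**
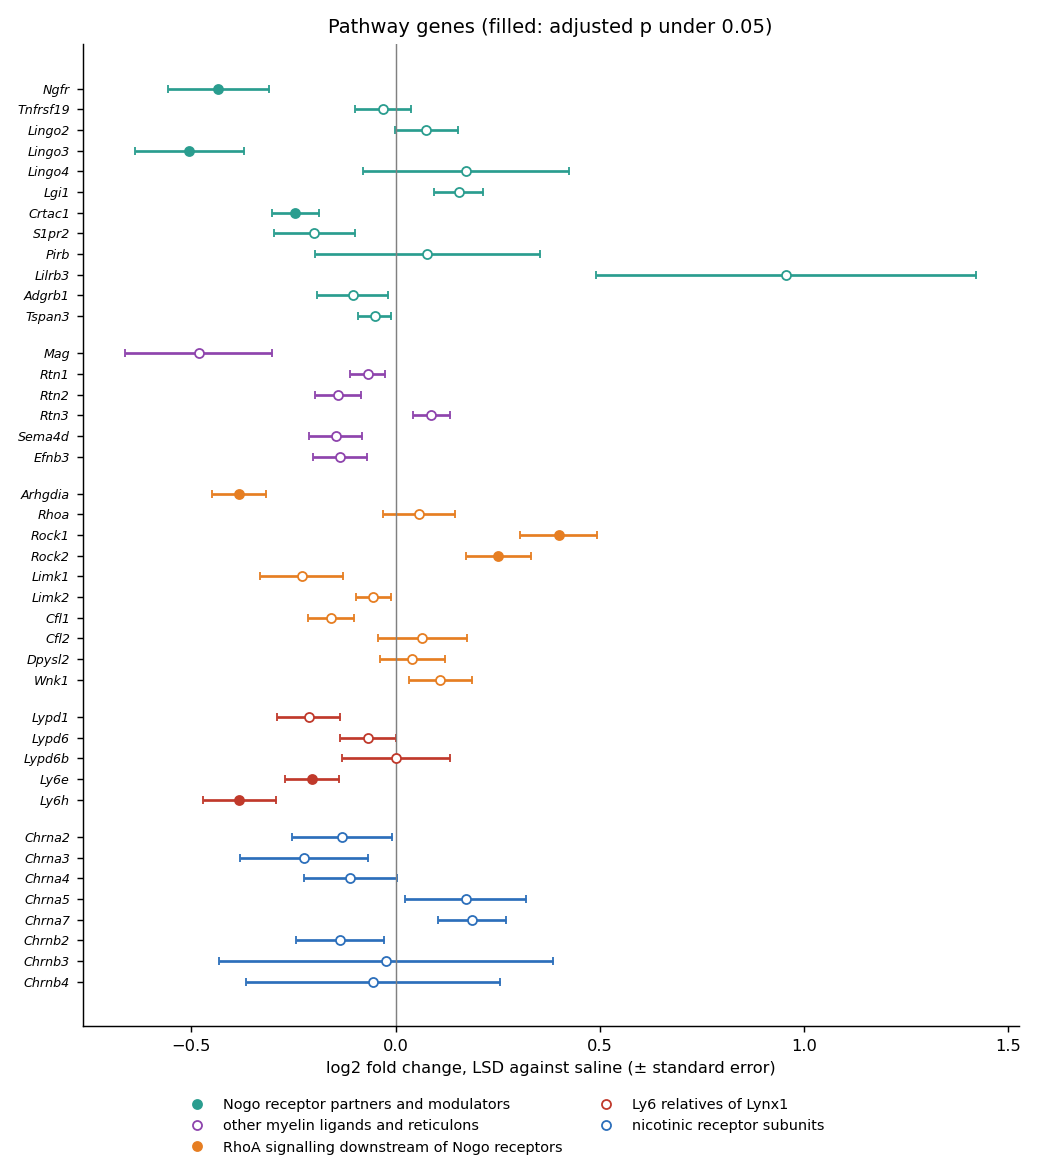
Log2 fold change of LSD against saline (horizontal axis, whiskers show the standard error) for the genes of 5 lists that passed the filter, filled where the adjusted p is under 0.05. Filled points are *Ngfr*, *Lingo3*, *Crtac1*, *Arhgdia*, *Ly6e* and *Ly6h* on the lower side and *Rock1* and *Rock2* on the higher side.

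Of 9 Ly6 relatives of *Lynx1*, 5 passed the filter and 2 of these were called lower, beside 8.54% of all genes. *Ly6h*, which like *Lynx1* encodes a brain Ly6 protein acting on nicotinic receptors, had 257.6 ± 28.7 RPM in LSD (SD, n = 10) and 335.8 ± 59.7 in controls (SD, n = 10), with all 10 LSD-treated rats below the control median. It fell by 0.38 (SE 0.089, edgeR adjusted p = 0.00917). *Ly6e* fell by 0.20 (SE 0.067, edgeR adjusted p = 0.0408), and 8 of 10 LSD-treated rats were lower than any control. Its call was lost in 13 of the 20 fits that left out 1 rat, and also with total-count scaling (adjusted p = 0.0729), no filter on low counts (0.0945), drawn reads (0.0568), the span correction (0.196) and without the 4 rats high in striatal markers (0.0822). With library size as a covariate, neither *Ly6h* (-0.22, adjusted p = 0.0950) nor *Ly6e* (-0.17, adjusted p = 0.143) was called. Among the list genes called lower, genomic spans ran from 2582 bases (*Ly6h*) over 3490 (*Arhgdia*) and 4475 (*Ly6e*) to 141958 (*Crtac1*). Those of *Rock1* and *Rock2*, called higher, were 121859 and 94951 bases. The median log2 fold change of the 5 was -0.20. Of the 9 nicotinic subunits, 8 passed the filter. None of them was called by edgeR or DESeq2, which called 15.0% and 18.7% of all genes. At an unadjusted p under 0.05 in edgeR, 1 of the subunits was higher. Their median log2 fold change was -0.08. The smallest p-value was that of *Chrna7*, with 44.1 ± 2.72 RPM in LSD (SD, n = 10) and 38.8 ± 6.30 in controls (SD, n = 10), a log2 fold change of 0.19 (SE 0.082, edgeR adjusted p = 0.124) and all 10 LSD-treated rats above the control median. The lowest control was saline replicate 9, a rat high in striatal markers, at 23.1 RPM with the next control at 34.2. *Chrna4* and *Chrnb2* had log2 fold changes of -0.11 (adjusted p = 0.548) and -0.14 (adjusted p = 0.415, edgeR).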

How the data were processed

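The deposited values are raw counts per gene, which the authors made by trimming (TrimGalore), alignment to rn6 (HISAT2) and HTSeq-count, without normalisation or filter. Tool versions, annotation and strand setting are not given in the sources used here. The 5 unnamed entries at the end of the matrix, the number of summary counters HTSeq-count appends, held between 25.5% and 29.0% of all counts of a rat and were left out. Groups came from the sample labels.

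The filter, taken from the study, asked for 5 or more reads in 10 or more rats and left 16605 genes. The main test was edgeR 4.0.16's quasi-likelihood F test with TMM in R 4.3.3, adjusted over all kept genes. It was also run on simulated counts, and the outcome is not given here. DESeq2 1.42.0, sva 3.50.0, other scalings and filters, a correction for genomic span (from GRCr8, known for 85.9% of kept genes, smoothed over 50 bins), a draw of reads, the replicate number as a block and each rat left out were alternatives. Correlations used log2(RPM + 1) with Python 3.11.15 and scipy 1.17.1. Standard errors come from the fold change and its F value.

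The 7 genes and all lists were chosen with earlier results of these data known. Named are the 7 genes, list genes past the threshold or else the smallest p of a list, and the 3 genes most like each member; other genes were named after their values were seen. Gene coordinates on rn6 and transcript lengths were not used here, so levels are not compared between genes.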

Additional observations from a re-analysis of the deposited data

Results flagged for a closer look

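In 42 groups of 10 values, 3 held 1 rat far from the others by Dixon's test, which chance alone gives in about 1 group in 20. These groups covered the 7 genes, the list genes called by edgeR and the ratios, so the levels of *Chrna7* were not among them. LSD replicate 1 had the highest *Arhgdia*, at 586.6 RPM with the next LSD-treated rat at 496.0, and the highest *Ly6h*, at 329.5 RPM with the next at 271.9. It has the smallest LSD library, and both values lie above the lowest control. Saline replicate 9 had the highest *Ly6e* of the controls, at 186.3 RPM with the next at 159.0, and is among the 4 rats high in striatal markers. None of the 7 Nogo receptor and *Lynx1* genes held such a rat in either group.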

How the results depend on the processing

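Median-ratio size factors, DESeq2, the stricter filter of 20 reads in all samples and the drawn reads changed no call of the 7 genes, and scaling by total counts changed none of them but left 858 genes lower. Without a filter on low counts 836 genes were lower and 0 of the 7 genes were called lower (*Lynx1* -0.25). With the replicate block 3 of the 7 and 9.67% of all genes were called lower, with *Rtn4r* at -0.24 and *Lingo1* at -0.28. Whether the numbers pair the rats was not tested. Same-numbered rats correlated between -0.26 and 0.47 after removing group means, over 0.1 in 6 of 10 pairs. The mean r was 0.145 for the same number and -0.016 for different numbers, and 1 LSD-treated rat correlated best with its own number. Span offsets gave 605 genes higher and 6.62% of all genes lower, 1 pathway list gene higher, *Lingo1* at -0.39 and *Lynx1* at -0.19. Span offsets with the replicate block gave 2 of the 7 and 7.73% of all genes lower, 1 list gene higher and *Lingo1* at -0.37. With 1 surrogate variable 3 of the 7, 10 list genes and 12.1% of all genes were lower, *Rtn4r* at -0.25 and *Lingo1* at -0.29. Library size as a covariate gave 534 genes higher and 639 lower, 0 of the 7 lower, 0 list genes higher and 3 lower, and log2 fold changes of -0.067 (*Rtn4*), 0.035 (*Rtn4r*), 0.060 (*Rtn4rl1*), 0.076 (*Rtn4rl2*), 0.053 (*Lingo1*), -0.095 (*Omg*) and -0.17 (*Lynx1*). Without the 4 rats high in striatal markers 1701 genes were higher, 10.5% of all genes, and 10.4% were lower. Of the 7 genes 2 were then higher and 4 lower, with *Rtn4* at 0.20, *Rtn4r* at -0.31, *Rtn4rl2* at -0.36, *Lingo1* at -0.40 and *Omg* at 0.20. The median size of r over the 21 pairs was 0.52 with the slope on library size removed, against 0.83. The cause of these shifts was not tested.

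With 1 rat left out at a time, between 663 (without LSD replicate 8; 705 without saline replicate 4) and 1669 (without saline replicate 2) genes were higher and between 957 and 1907 lower, between 0 and 4 of the 7 genes were lower, and between 1 and 3 list genes were higher and 5 to 8 lower. *Lynx1* stayed between -0.30 and -0.21, *Rtn4r* between -0.30 and -0.21, *Rtn4rl2* between -0.32 and -0.20 and *Lingo1* between -0.35 and -0.24, and *Rtn4rl1*, *Rtn4* and *Omg* kept their direction and stayed uncalled. The lowest count of any of the 7 genes in any rat was 962.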
